A study of Homo sapiens with 6 samples.

Results

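The Notch pathway carries signals between touching cells, and 10 of its genes were followed here in SH-SY5Y cells, a human neuroblastoma line: the receptors NOTCH1, NOTCH2 and NOTCH3, the ligands JAG1, JAG2, DLL1 and DLL3, the target genes HES1 and HEY1, and POFUT1, an enzyme that modifies the receptors. The genes were chosen by symbol from the count table, which held 10 of the 10 among its 21301 genes. Cells received a control siRNA (siControl) or an siRNA against PSF (siPSF) at 10 nM, and poly(A) RNA was sequenced 72 h later from 3 libraries of each group. PSF is an RNA- and DNA-binding protein of the nucleus encoded by SFPQ. Both groups were the same cell line without any other labelled treatment, and the siPSF group rests on 1 siRNA sequence in 1 line. The comparison asks which Notch genes differed in level when PSF was reduced.

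Notch receptors are cleaved when a ligand on a neighbouring cell pulls on them, and the freed intracellular domain enters the nucleus, binds RBPJ with a MAML coactivator and switches on genes of the HES and HEY families. Sugars that POFUT1 and related enzymes add to the receptor decide whether it is folded, exported and bound by ligand. In the developing nervous system the HES repressors hold back proneural genes, and the pathway is known for keeping progenitors from becoming neurons.

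The libraries held between 101540520 and 132420931 counts, and a single Notch gene between 78 and 10405. Counting error weighs most on DLL1, which had 78 to 116 counts per library. SFPQ stood at 372, 356 and 401 CPM (counts scaled to the normalized size of each library) in siControl and at 209, 193 and 165 CPM in siPSF, which is 50.2% of control (log2 fold change -0.99, SE 0.10, edgeR adjusted p = 9.5e-05). The 9 noradrenergic neuroblastoma markers, which include TH and DBH, summed to between 4728 and 5393 CPM in siControl and between 4203 and 4794 CPM in siPSF. The 10 mesenchymal markers tested summed to between 352 and 368 CPM in siControl and between 324 and 353 CPM in siPSF, a sum carried largely by TWIST1 at 170 to 210 CPM, while the median log2 fold change of the list was 0.27. The 3 Schwann cell markers tested summed to at most 3.14 CPM in any library. Among these markers TH, DBH and FN1 were lower and GATA3 was higher in siPSF. TH was near the floor, at 0.172 to 0.839 CPM over the libraries, whereas DBH stood at 1000 to 2046 CPM. The GATA3 call was lost on leaving out any 1 library (edgeR adjusted p from 0.0598 to 0.0988). Whether these marker shifts had a part in the Notch results was not tested.

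Of the 10 Notch genes, NOTCH1, JAG2 and HEY1 were higher in siPSF than in siControl, NOTCH2 and POFUT1 were lower, and the other 5 did not pass the test. A call here means an adjusted p under 0.05 over the 19694 genes tested, and all 10 genes were among them. Across all genes tested, 8.27% were called lower and 6.65% higher. The groups did not overlap for 4 of the 10 genes, against 34.4% of all genes. The median log2 fold change was 0.22 over the 10 genes and 0.01 over all genes tested. NOTCH2 and POFUT1 were picked out by the study on these same libraries, so their fall is not independent evidence of a direction. Since RNA was measured in bulk, fewer cells of one kind and less RNA per cell cannot be told apart.

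**Figure D1:**
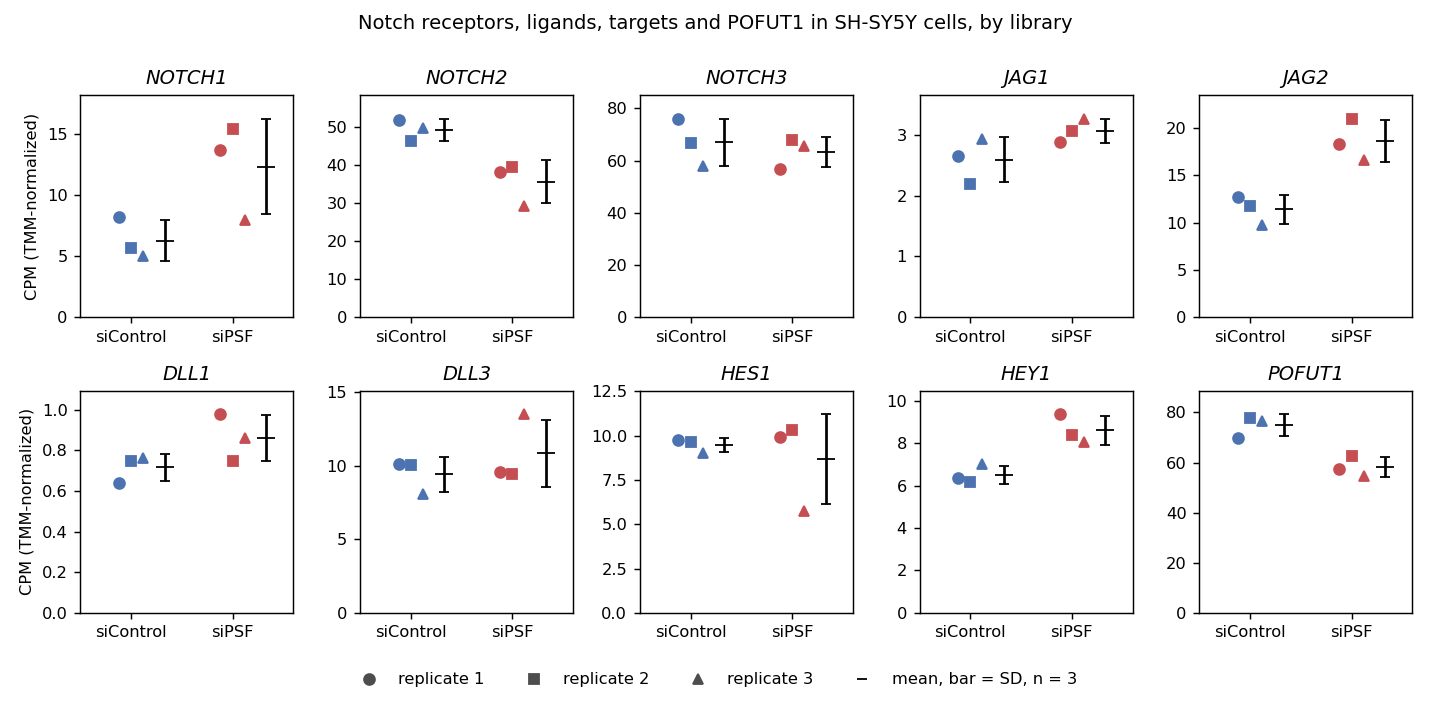
Level of each of the 10 Notch genes in CPM (vertical axes, linear and starting at 0) in the 3 siControl (blue) and 3 siPSF (red) libraries, with the marker shape giving the replicate and the black bar the mean and SD. JAG2 and HEY1 sit higher and NOTCH2 and POFUT1 lower in every siPSF library, whereas the groups overlap for NOTCH1 and the other 5 genes.

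**Figure D2:**
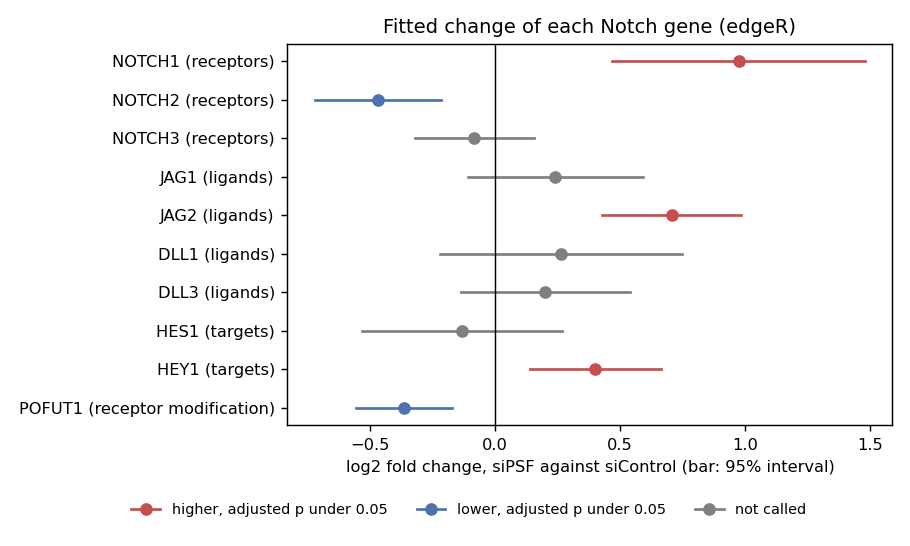
Fitted log2 fold change of siPSF against siControl (horizontal axis) for the 10 Notch genes with its 95% interval from edgeR. Points run from -0.47 for NOTCH2 to 0.98 for NOTCH1, with genes called higher in red, called lower in blue and not called in grey.

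The ligand with a call was JAG2, which encodes a transmembrane ligand of the Jagged type. JAG2 (chr14:105140995-105168776, GRCh38.p14, 27.8 kb) measured 12.7, 11.7 and 9.78 CPM in siControl and 18.3, 21.0 and 16.6 CPM in siPSF. Every siPSF library was above every siControl library. JAG2 rose from 11.4 ± 1.5 to 18.6 ± 2.21 CPM (SD, n = 3), a 1.63-fold difference (log2 fold change 0.71, SE 0.13, edgeR adjusted p = 0.00345). It was the one Notch gene called under each of the 13 other settings tried, whose log2 fold changes ran from 0.43 to 0.79.

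JAG1, the other Jagged ligand and a partner of the same receptors, was not called. Its siControl libraries held 2.65, 2.2 and 2.94 CPM and its siPSF libraries 2.88, 3.06 and 3.27 CPM. Only siControl replicate 3 reached into the siPSF range. The log2 fold change of JAG1 (chr20:10637684-10673999, 36.3 kb) was 0.24 with a 95% interval from -0.11 to 0.59 (adjusted p = 0.346), and that interval takes in part of the interval of JAG2, from 0.43 to 0.99.

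The Delta-like ligands differ in role: DLL1 activates receptors on neighbouring cells, and DLL3 stays largely inside the cell and blocks Notch in the cell that makes it. DLL3 (chr19:39498947-39508469, 9.52 kb) stood at 10.1, 10.1 and 8.04 CPM in siControl and at 9.55, 9.46 and 13.5 CPM in siPSF. Replicate 3 was the lowest control and the highest siPSF library, and the other 4 libraries lay close together. The log2 fold change was 0.20 (95% interval -0.14 to 0.54, adjusted p = 0.420) and came to 0.015 on leaving out siPSF replicate 3. DLL1 (chr6:170282206-170291078, 8.87 kb) was the lowest of the 10 genes in both CPM and FPKM, at 0.641, 0.750 and 0.762 CPM in siControl and 0.977, 0.748 and 0.862 CPM in siPSF. Its groups overlapped through siPSF replicate 2 (log2 fold change 0.27, 95% interval -0.22 to 0.75, adjusted p = 0.466). The start of DLL1 overlaps FAM120B on the opposite strand. The sources used here leave the strand setting of the counts unstated, so the DLL1 count is uncertain. FAM120B itself went from 62.0 ± 5.11 to 52.3 ± 1.61 CPM (SD, n = 3) and was not called (log2 fold change -0.24, adjusted p = 0.0848).

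The 3 receptors went different ways. NOTCH1 (chr9:136494433-136546048, 51.6 kb), the receptor first known from T-cell leukaemia, read 8.21, 5.66 and 4.99 CPM in siControl and 13.7, 15.4 and 7.94 CPM in siPSF. Replicates 1 and 2 of siPSF stood clear of the controls, whereas siPSF replicate 3 lay just below siControl replicate 1. The means were 6.29 ± 1.7 and 12.4 ± 3.92 CPM (SD, n = 3), a 1.97-fold rise (log2 fold change 0.98, SE 0.23, edgeR adjusted p = 0.0153). The call was lost without siControl replicate 2 (adjusted p = 0.0803) or siControl replicate 3 (0.0957). With limma on log2(FPKM + 0.5), where FPKM is the deposited level scaled to transcript length and depth, the difference was 0.55 (adjusted p = 0.0574). After rescaling FPKM to a common sum, with the same offset, it was 0.48 (0.0736). With limma and the smaller offset of 0.1, without rescaling, it was 0.78 (adjusted p = 0.0589). The size of the difference thus varied with the offset, and NOTCH1 stood at only 0.499 to 1.41 FPKM.

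NOTCH2, a receptor broadly used in development, was lower. NOTCH2 (chr1:119911553-120069662) is the longest of the 10 genes at 158 kb and read 52.1, 46.4 and 49.7 CPM in siControl against 38.4, 39.5 and 29.3 CPM in siPSF. All siPSF libraries lay below the lowest control, and siPSF replicate 3 was the lowest. NOTCH2 fell from 49.4 ± 2.87 to 35.7 ± 5.62 CPM (SD, n = 3), or to 72.3% of control (log2 fold change -0.47, SE 0.12, edgeR adjusted p = 0.0185). Without siControl replicate 1 or siControl replicate 3 the adjusted p was 0.0513 and 0.0631. NOTCH2 shares sequence with the partial copies NOTCH2NLA, NOTCH2NLB and NOTCH2NLC, so reads may be split between them. These copies were counted at 1.14 CPM or less in every library and were not called, with log2 fold changes of -0.77, -0.29 and -0.88.

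NOTCH3, the receptor of vascular smooth muscle and of several tumour types, showed no call. NOTCH3 (chr19:15159038-15200995, 42.0 kb) read 76.0, 66.9 and 58.0 CPM in siControl and 56.7, 67.7 and 65.5 CPM in siPSF. The siPSF values lay almost wholly inside the control range. The log2 fold change was -0.08 with a 95% interval from -0.32 to 0.16 (adjusted p = 0.665), which does not reach the fitted fall of NOTCH2. Leaving out siControl replicate 1, the highest library, turned it to 0.018.

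Because CPM grows with transcript length, levels between genes were compared in FPKM. NOTCH3 was the most abundant receptor in both groups, at 7.77 ± 0.870 FPKM in siControl and 6.95 ± 0.647 in siPSF (SD, n = 3). NOTCH2 followed with 4.06 ± 0.234 and 2.77 ± 0.442 FPKM, and NOTCH1 came last with 0.610 ± 0.157 and 1.14 ± 0.363 FPKM. As a share of the summed FPKM of these 3 receptors, NOTCH1 held 5.77%, 4.52% and 4.28% in siControl and 12.2%, 11.9% and 7.18% in siPSF. The share of NOTCH1 was thus higher in each siPSF library than in any control. NOTCH2 held 30.7%, 31.6% and 36.0% in siControl and 28.6%, 25.5% and 22.2% in siPSF, with no overlap in the opposite direction. The share of NOTCH3 was 62.4% ± 2.29 and 64.2% ± 5.82 (SD, n = 3), with overlapping groups. The sum of these 3 receptors was 12.4 ± 1.09 FPKM in siControl and 10.9 ± 0.939 FPKM in siPSF, and the groups overlapped. NOTCH4, at 3.31 ± 0.319 FPKM in siControl and 2.32 ± 0.222 FPKM in siPSF (SD, n = 3), was not part of the sum or the shares.

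DLL3 led the 4 ligands followed here by FPKM, with 4.07 ± 0.480 in siControl and 4.48 ± 0.921 in siPSF (SD, n = 3). JAG2 came next with 1.85 ± 0.207 and 2.89 ± 0.355 FPKM. JAG1 (0.407 ± 0.0676 and 0.455 ± 0.0248 FPKM) and DLL1 (0.178 ± 0.0166 and 0.201 ± 0.0281 FPKM) were far below. Of the summed FPKM of these 4 ligands, JAG2 held 29.2%, 28.0% and 28.1% in siControl and 38.4%, 41.7% and 28.9% in siPSF. The share in siPSF replicate 3 was close to the controls, since DLL3 was high there and JAG2 was the lowest of its group. The sum of these 4 ligands was 7.0, 6.70 and 5.81 FPKM in siControl and 7.59, 7.75 and 8.75 FPKM in siPSF, which did not overlap. DLL4, DLK1 and DLK2 were not part of the sum or the shares. Of them, DLK1, taken up below, stood at 19.4 ± 3.65 FPKM in siControl and 7.29 ± 0.763 FPKM in siPSF (SD, n = 3).

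**Figure D3:**
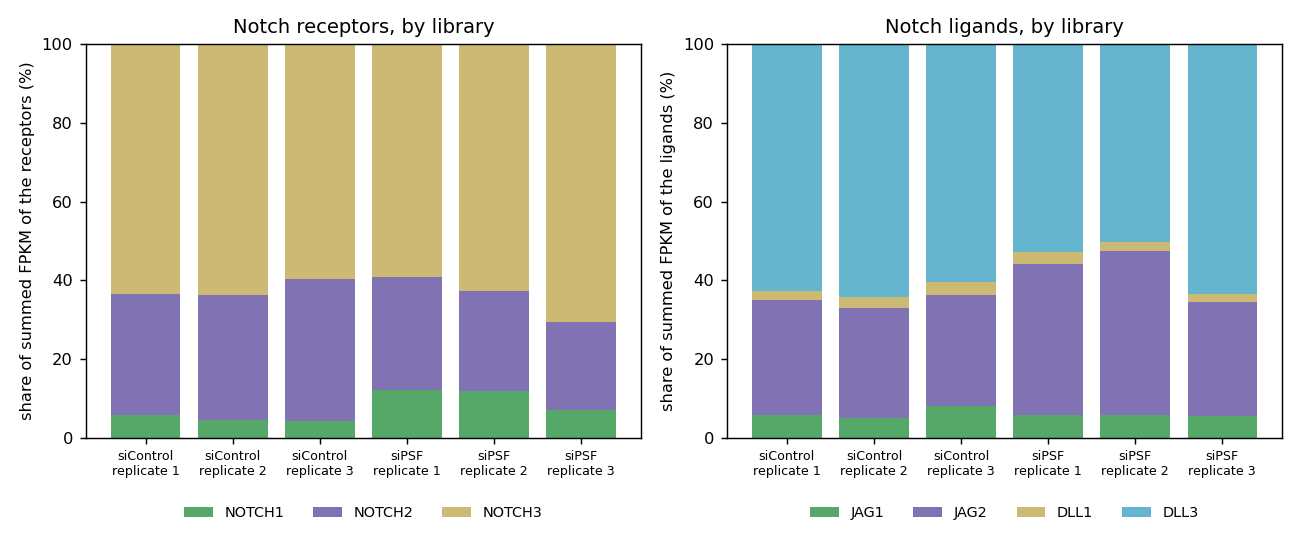
Share in percent (vertical axes, from 0 to 100) that each gene took of the summed FPKM of its class, 1 stacked bar per library. The classes are the receptors NOTCH1, NOTCH2 and NOTCH3 (left) and the ligands JAG1, JAG2, DLL1 and DLL3 (right). NOTCH1 widens from at most 5.77% in siControl to at least 7.18% in siPSF, and the JAG2 share of siPSF replicate 3 (28.9%) sits with the controls.

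In the full order by FPKM, POFUT1 led in siControl with 13.3 ± 0.875 (SD, n = 3), before NOTCH3, HES1 at 5.61 ± 0.106, DLL3, NOTCH2, HEY1 at 2.72 ± 0.242, JAG2, NOTCH1, JAG1 and DLL1. DLL3 and NOTCH2 were the only neighbours in that order whose libraries overlapped. In siPSF the order was POFUT1 at 9.86 ± 0.606, NOTCH3, HES1 at 4.86 ± 1.44, DLL3, HEY1 at 3.40 ± 0.313, JAG2, NOTCH2, NOTCH1, JAG1 and DLL1. NOTCH2 thus stood below HEY1 and JAG2 in siPSF, although HES1 and DLL3, HEY1 and JAG2, and JAG2 and NOTCH2 overlapped there as neighbours.

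HES1 encodes a repressor that Notch switches on in many tissues and that binds its own promoter. The stretch before its start is shown because it is the only matched promoter of the 10 genes with the RBPJ core letters TGGGAA. It covers chr3:194135898-194136147 (plus strand, RefSeq, GRCh38.p14), ends at the base before the gene start, and has both matches in capitals.
HES1: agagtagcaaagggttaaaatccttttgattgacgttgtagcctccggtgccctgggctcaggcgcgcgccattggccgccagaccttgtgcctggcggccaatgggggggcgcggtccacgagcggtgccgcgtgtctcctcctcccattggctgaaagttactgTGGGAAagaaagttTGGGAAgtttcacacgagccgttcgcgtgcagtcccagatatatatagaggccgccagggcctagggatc
The matches begin 84 and 70 bases before the start, on the same strand. Promoters were matched in RefSeq for 7 of the 10 genes, those other than DLL1, DLL3 and HEY1, as windows from 250 bases before to 50 bases after the start, and TGGGAA was searched on both strands. It was present in 24.03% of all 35116 promoters and at least 2 times in 3.796%. The letters CACGTG, an E-box, were present in 7.256% of all promoters and in 0 of the 7. A match describes the letters of the window and does not show binding.

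HES1 (chr3:194136148-194138732) did not pass the test. It read 9.77, 9.65 and 9.04 CPM in siControl and 9.93, 10.3 and 5.75 CPM in siPSF. The controls and siPSF replicates 1 and 2 lay within a narrow band, and siPSF replicate 3 was far below it. The log2 fold change was -0.13 with a 95% interval from -0.53 to 0.27 (adjusted p = 0.683). Leaving out siPSF replicate 3 turned it to 0.094 (adjusted p = 0.646).

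HEY1, the repressor of the related HEY family, was higher. It read 6.35, 6.18 and 7.0 CPM in siControl and 9.35, 8.38 and 8.07 CPM in siPSF. The groups did not overlap, and the rise from 6.51 ± 0.431 to 8.60 ± 0.667 CPM (SD, n = 3) was 1.32-fold (log2 fold change 0.40, SE 0.12, edgeR adjusted p = 0.0417). Of the 6 fits that left out 1 library, the one without siPSF replicate 3 kept the call (adjusted p = 0.0250). The adjusted p was 0.104, 0.169 and 0.0595 without siControl replicates 1, 2 and 3, and 0.175 and 0.0763 without siPSF replicates 1 and 2. With limma on rescaled FPKM the difference was 0.18 (adjusted p = 0.289), and without a filter on low counts the adjusted p was 0.0615.

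POFUT1, which adds O-fucose to the receptors, was lower. POFUT1 (chr20:32207880-32238658, 30.8 kb) read 69.8, 78.0 and 76.6 CPM in siControl and 57.3, 62.6 and 54.8 CPM in siPSF. Every siPSF library lay below every control. It fell from 74.8 ± 4.39 to 58.2 ± 4.0 CPM (SD, n = 3), or to 77.8% of control (log2 fold change -0.36, SE 0.09, edgeR adjusted p = 0.0169). The adjusted p was 0.0744 without siControl replicate 2 and 0.0662 without siPSF replicate 1.

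To compare genes of the same role inside each library, the log2 ratio of their counts was taken for 5 pairs, and the groups were compared by a two-sided exact permutation test. With 3 libraries against 3 the smallest p possible is 0.1, so none of these tests can pass 0.05. The log2 ratio of NOTCH2 to NOTCH1 was 2.67, 3.03 and 3.32 in siControl and 1.49, 1.36 and 1.88 in siPSF. The groups stood well apart, with a difference of -1.43 (exact p = 0.1, adjusted over the pairs 0.167). NOTCH3 to NOTCH2 went from 0.43 ± 0.181 to 0.83 ± 0.304 (SD, n = 3) without overlap (exact p = 0.1, adjusted 0.167), and the difference of 0.40 was 0.24 without siPSF replicate 3. HEY1 to HES1 read -0.62, -0.64 and -0.37 in siControl and -0.09, -0.30 and 0.49 in siPSF, a difference of 0.58 (exact p = 0.1, adjusted 0.167) that was 0.35 without siPSF replicate 3. The highest ratio was that of siPSF replicate 3, the library in which HES1 was low. JAG2 to JAG1 overlapped between groups (2.14 ± 0.358 against 2.60 ± 0.226, SD, n = 3, exact p = 0.2, adjusted 0.25), and the difference of 0.46 was 0.26 without siControl replicate 3. DLL3 to DLL1 was 3.71 ± 0.292 against 3.64 ± 0.339 (SD, n = 3, exact p = 0.7), and the difference of -0.07 turned to 0.06 without siControl replicate 1 and to 0.10 without siPSF replicate 1.

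**Figure D4:**
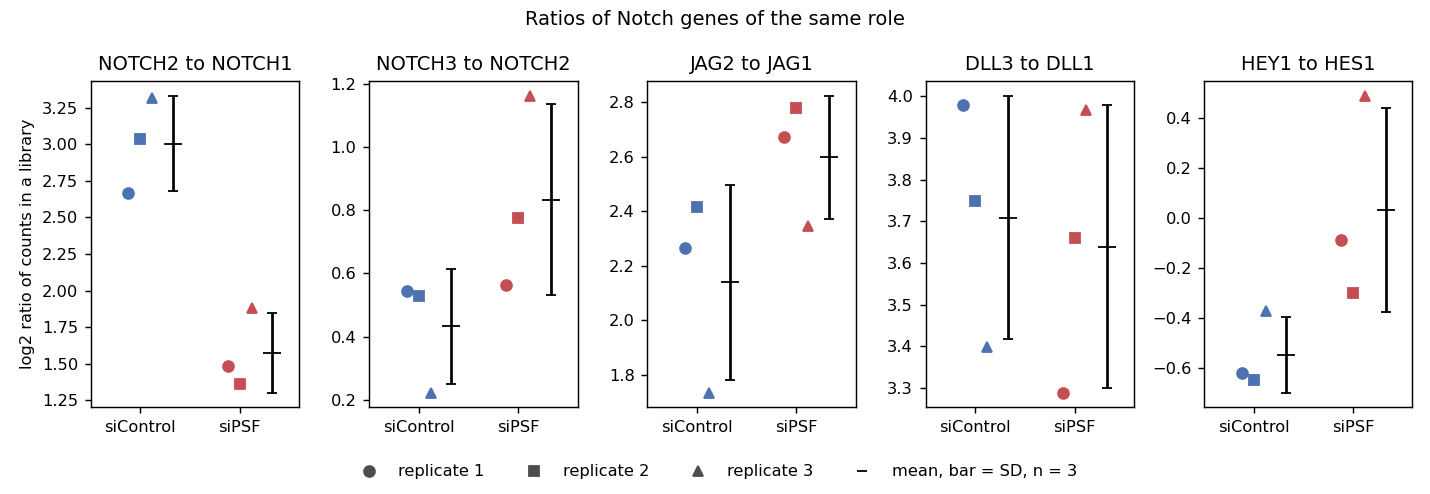
Log2 ratio of counts inside each library (vertical axes) for the 5 pairs in siControl (blue) and siPSF (red), with replicates as marker shapes and mean and SD in black. NOTCH2 to NOTCH1 lies between 2.67 and 3.32 in siControl and between 1.36 and 1.88 in siPSF, whereas DLL3 to DLL1 overlaps.

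The siPSF libraries were not alike in their Notch genes. Replicate 3 was the lowest of the siPSF libraries for NOTCH1, NOTCH2, JAG2, HES1, HEY1 and POFUT1 and the highest for DLL3 and JAG1. Of the mesenchymal markers tested, VIM, FOSL1, YAP1, WWTR1, SNAI2 and COL1A2 were also lowest in this library among the siPSF libraries. TWIST1, FN1 and COL1A1 were instead highest there, and CD44 lay between. These markers are named after their values were seen. VIM read 65.5, 71.8 and 66.5 CPM in siControl and 85.7, 92.4 and 53.7 CPM in siPSF. FOSL1 read 5.46, 4.86 and 3.52 CPM in siControl and 9.21, 11.5 and 3.87 CPM in siPSF. VIM and FOSL1 were thus highest in siPSF replicate 2, where NOTCH1 was highest, and neither was called (edgeR adjusted p = 0.467 and 0.0855). TWIST1, which made up most of the mesenchymal sum, was lowest in that library, at 200, 170 and 203 CPM in siPSF. The part of these markers in the Notch values was not tested. Without siPSF replicate 3, NOTCH1, JAG2 and HEY1 were called higher and NOTCH2 and POFUT1 lower.

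In a list of 82 other genes of the pathway, 75 were in the table and tested. Of these, 11 were lower, 6 were higher and 58 were not called, with a median log2 fold change of -0.02. Over all genes tested, 8.27% were lower and 6.65% higher, and these shares stand beside the counts of each list below. The lists were chosen with earlier results of these data known. The groups did not overlap for 29 of the 75, beside 34.4% of all genes. With limma on rescaled FPKM, which moves the median of all genes to -0.16, 64 of the 75 could be tested, and 23 were lower and 1 was higher, beside 23.0% and 3.12% of the 14827 genes in that fit. The remaining 7 listed genes, such as HEYL and ATOH1, were not analysed here.

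Among further receptors and ligands, 2 of 4 fell. DLK1, a Delta-like protein of neuroendocrine cells that lacks the usual receptor-binding domain, read 78.3, 115 and 97.9 CPM in siControl and 35.2, 36.9 and 43.3 CPM in siPSF. It fell to 39.6% of control (log2 fold change -1.34, SE 0.13, edgeR adjusted p = 8.5e-05), the lowest fitted change of the genes called in this list. NOTCH4, the fourth receptor, fell from 24.0 ± 2.62 to 17.8 ± 1.81 CPM (SD, n = 3, log2 fold change -0.44, edgeR adjusted p = 0.0236). The NOTCH4 call was lost without siControl replicate 2 (0.117), siPSF replicate 1 (0.0917) or siPSF replicate 2 (0.0701).

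Of 14 genes for receptor sugars and the furin step, 2 were lower and 0 were higher, beside 12 without a call. GMDS, which starts the synthesis of the fucose donor that POFUT1 uses, fell from 10.8 ± 0.866 to 7.33 ± 0.241 CPM (SD, n = 3, log2 fold change -0.56, edgeR adjusted p = 0.00665) and was called on leaving out any 1 library. On log2(FPKM + 0.5) its difference was -0.98. POGLUT3, a glucosyltransferase of receptor repeats, passed narrowly (log2 fold change -0.35, adjusted p = 0.0495). Its call was kept without siPSF replicate 1 and lost without any other library, with an adjusted p between 0.0507 and 0.144. The 6 genes of ligand endocytosis gave 0 calls by edgeR and 0 by DESeq2, with 2 at an unadjusted p under 0.05, and 1 call with limma on rescaled FPKM. The 8 genes of receptor cleavage gave 0 calls by edgeR and 0 by DESeq2, with 0 at an unadjusted p under 0.05, and 3 calls with limma on rescaled FPKM. MIB1, a ubiquitin ligase that acts on ligands, had the smallest p of the first list (log2 fold change -0.35, adjusted p = 0.13). ADAM17, a protease of the receptor, had that of the second (0.15, adjusted p = 0.342, turned to -0.038 with rescaled FPKM). The 8 cleavage genes, which include the subunits of gamma-secretase, ranged from -0.12 to 0.15.

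Of 10 genes for receptor trafficking and turnover, NUMB was lower, and FBXW7 and DTX2 were higher. NUMB, an inhibitor of Notch, stood at 80.9% of control (log2 fold change -0.31, edgeR adjusted p = 0.0426). FBXW7, whose ubiquitin ligase marks the intracellular domain for destruction, was 1.26-fold higher (0.33, adjusted p = 0.0341), and so was DTX2 (0.33, adjusted p = 0.0475). The call of DTX2 was lost on leaving out any library (adjusted p up to 0.113). That of NUMB was kept only without siControl replicate 1 among these fits (up to 0.107), and that of FBXW7 only without siControl replicate 3 or siPSF replicate 3 (up to 0.162). With limma on FPKM the calls of FBXW7 and DTX2 were lost under each of the 3 scalings, and after rescaling their log2 differences were 0.12 and 0.13.

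The nuclear activator complex had 4 lower genes and 0 higher genes of 9, beside 8.27% lower and 6.65% higher of all genes tested. Its median log2 fold change was -0.25. MAML3, a coactivator that bridges the receptor domain and RBPJ, measured 70.8, 75.5 and 81.3 CPM in siControl and 51.9, 53.8 and 53.4 CPM in siPSF. The siPSF values were close together and all below the controls (log2 fold change -0.52, SE 0.08, edgeR adjusted p = 0.00183). CREBBP, a histone acetyltransferase, fell to 75.7% of control (-0.40, adjusted p = 0.00562), and its relative EP300 to 77.4% (-0.37, adjusted p = 0.0283). The EP300 call was lost without siControl replicate 2 (0.0973), siControl replicate 3 (0.0912), siPSF replicate 1 (0.0661) or siPSF replicate 3 (0.0544). MAML2 was also lower (-1.28, adjusted p = 0.0149) but stayed at or under 0.564 CPM, and its call was lost without siControl replicate 3 (0.0604) or siPSF replicate 2 (0.0502). RBPJ itself, the DNA-binding core and named outside the rule for named genes, was at 56.2 ± 5.46 and 56.0 ± 7.65 CPM (SD, n = 3, log2 fold change -0.01, adjusted p = 0.978).

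Of 13 corepressors, 1 was lower and 3 were higher, and all of these calls came from the Groucho family of TLE proteins or from CIR1. TLE3 measured 267, 256 and 231 CPM in siControl and 169, 171 and 144 CPM in siPSF, a fall to 64.2% (log2 fold change -0.64, SE 0.09, edgeR adjusted p = 0.000996). TLE1 moved the other way, from 53.9 ± 1.22 to 77.8 ± 10.3 CPM (SD, n = 3, 0.53, adjusted p = 0.00422). Both calls held on leaving out any 1 library, but with limma on rescaled FPKM that of TLE1 was lost (0.31, adjusted p = 0.0529). TLE2 rose 1.95-fold, from 1.56 ± 0.498 to 3.03 ± 0.0447 CPM (SD, n = 3, edgeR adjusted p = 0.0102), and CIR1, a corepressor bound to RBPJ, was 1.47-fold higher (adjusted p = 0.0101). Without siControl replicate 2 the adjusted p was 0.0574 for TLE2 and 0.0662 for CIR1, and without siControl replicate 3 it was 0.0627 for TLE2. With limma on rescaled FPKM it was 0.0852 for CIR1 (log2 difference 0.33).

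Other genes of the HES and HEY families and NRARP, a feedback target, gave 0 calls of 5 tested by edgeR, 0 at an unadjusted p under 0.05 and 0 by DESeq2 or by limma on rescaled FPKM, which tested 3 of them. The smallest p among them was that of HES7 (log2 fold change 0.30, adjusted p = 0.396). Of 6 proneural and related genes, HES6 was lower and ATOH8 was higher. HES6, which opposes HES1 and promotes neuronal differentiation, measured 41.1, 43.3 and 36.4 CPM in siControl and 29.9, 29.1 and 26.9 CPM in siPSF. These groups did not overlap, and HES6 was called on leaving out any 1 library (log2 fold change -0.49, SE 0.10, edgeR adjusted p = 0.00584). ATOH8 rose 1.73-fold with overlapping groups (adjusted p = 0.0204), and its call was lost without siControl replicates 2 or 3 or siPSF replicates 1 or 2 (adjusted p up to 0.106). It was also lost with limma on FPKM under each of the 3 scalings, with a log2 difference of 0.25 after rescaling.

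**Figure D5:**
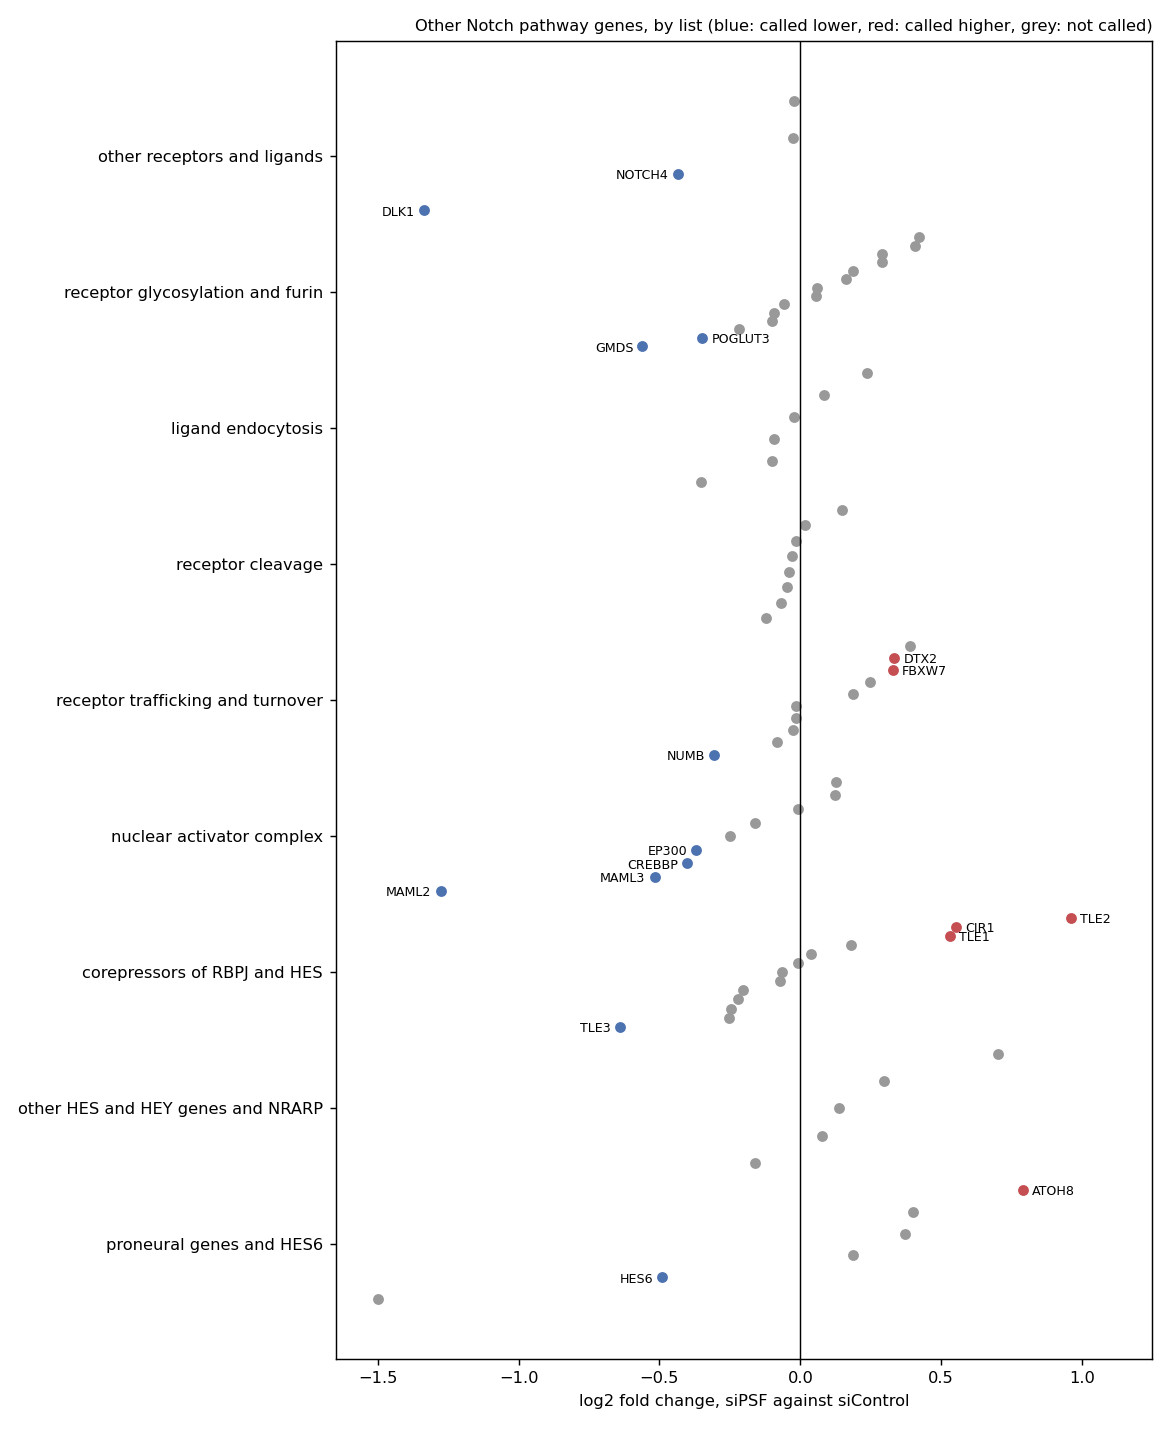
Log2 fold change of siPSF against siControl (horizontal axis) for the 75 other Notch pathway genes tested, in rows by list, with genes called lower in blue, higher in red and not called in grey. The 4 lower genes of the nuclear activator complex lie from -1.28 to -0.37, and the 8 receptor cleavage genes lie between -0.12 and 0.15.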

How the data were processed

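RNA of SH-SY5Y cells was sequenced in 3 siControl and 3 siPSF libraries, grouped by their titles. Per the study's methods, these are biological replicates. The labels do not name separate cultures, so p-values measure the spread between these libraries. The authors deposited raw counts per gene and FPKM values, which the methods call RPKM. The authors selected poly(A) RNA, read paired ends, used Bowtie 2 to remove rRNA, then aligned to hg38 by TopHat and made counts per RefSeq gene. The submitters' processing notes instead name Trimmomatic, HISAT2 2.1.0, StringTie 2.1.3b and GRCh38. The kit is stranded per the labels, the methods name another TruSeq RNA kit, and the strand setting of counting is not given in the sources used here.

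Counts were filtered with filterByExpr (19694 of 21301 genes kept), normalized by TMM and tested by edgeR 4.0.16's quasi-likelihood test (R 4.3.3), with p-values adjusted over the whole table (Benjamini-Hochberg) and calls at 0.05. CPM are TMM-normalized. Intervals are 95% intervals of the fit. Each library held 101540520 counts or more, and the common biological coefficient of variation was 12.62%. Alternatives were DESeq2 1.42.0 (size factors, Wald test), no filter, a replicate block, leaving out each library, and limma 3.58.1 on log2(FPKM + 0.5), log2(FPKM + 0.1) and rescaled FPKM, for genes of a mean of 0.5 FPKM or more. Positions and promoters came from RefSeq tables of GRCh38.p14, read with pandas 2.3.3, and exact tests from scipy 1.17.1.

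The 10 genes and all lists were chosen with earlier results of these data known. Named are the 10 genes, SFPQ, each called pathway gene and, in a list without calls, the gene with the smallest p. Genes outside this rule were chosen after their values were seen. Some genes of the lists are not reported here.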

Additional observations from a re-analysis of the deposited data

How the results depend on the processing

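On leaving out each library in turn, the number of the 10 Notch genes called lower was 1 to 2 and called higher 1 to 3, and of the other pathway genes 7 to 13 were lower and 1 to 5 higher. The count of 7 came without siControl replicate 2, siControl replicate 3 or siPSF replicate 2, and that of 1 without siControl replicate 2. With limma on FPKM, 1 Notch gene (JAG2) was called higher under each of the 3 scalings. In the other pathway genes, 3 were higher with an offset of 0.5 or 0.1 and 1 after rescaling, where 23 were lower. These fits tested 8 of the 10 genes, since JAG1 and DLL1 were below the floor. The direction turned for NOTCH3 without siControl replicate 1 (0.018, where leaving out 1 library ranged from -0.18 to that value), for HES1 without siPSF replicate 3 (0.094, range from -0.27) and for ADAM17 with rescaled FPKM (-0.038), and for the DLL3 to DLL1 ratio without siControl replicate 1 (0.065) or siPSF replicate 1 (0.10). The cause was not tested. Of 13 settings, JAG2 was called in 13, NOTCH2 and POFUT1 in 11, NOTCH1 in 8 and HEY1 in 3. The 5 genes without a call had none in any setting that tested them. SFPQ was lower in all 13.

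No clear pairing of the libraries by replicate number was seen. Deviations of libraries with the same number correlated at -0.022, 0.056 and 0.056 across genes, and those with different numbers between -0.121 and 0.071. The highest value was that of siControl replicate 1 with siPSF replicate 2. With 3 libraries per group these values cannot decide whether the replicates were paired. With a replicate block, 2 Notch genes were lower and 2 higher (HEY1 adjusted p = 0.0564), and 11 other pathway genes were lower and 5 higher. DESeq2's Wald test gave 2 lower and 3 higher Notch genes.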
